A study of Mus musculus with 12 samples.

Results

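Megalin and cubilin carry filtered protein into the proximal tubule, and 8 genes of this uptake route were followed in kidney mRNA of 12 male mice. They are Lrp2, Cubn, Amn, Dab2, Clcn5, Ocrl, Fcgrt and Lrpap1, taken by symbol from 57490 genes in the deposited table of read counts, and each symbol matched 1 gene. The Ctrl group held 4 heterozygous db/m mice of the BKS background given purified water. The Model group held 4 db/db mice given the same water, whose defective leptin receptor leaves them obese and diabetic, and the YHY group held 4 db/db mice given a water extract of Yiqi Huoxue Yangyin Decoction (YHY, 6.24 g/mL) by daily gavage for 4 weeks. All mice were 13 weeks old at collection, and each library came from 1 mouse. The db/db mice had been selected for high random blood glucose and the db/m mice for glucose below a limit. The sample labels give kidney as the tissue and whole tissue as the material, and the series description calls it renal cortex. The study's methods give doses per body weight and do not name the dose that was sequenced.

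Megalin, the product of Lrp2, and cubilin, the product of Cubn, are large receptors of the proximal tubule brush border that bind albumin, vitamin carriers and other filtered proteins. Cubilin has no membrane anchor of its own and reaches the surface with amnionless (Amn), the adaptor Dab2 links megalin to clathrin coats, and the chaperone RAP (Lrpap1) keeps new receptors free of ligand. After uptake the chloride-proton exchanger ClC-5 (Clcn5) helps acidify endosomes, the phosphatase OCRL (Ocrl) acts on endosomal phosphoinositides, and the neonatal Fc receptor (Fcgrt) returns albumin and IgG from endosomes.

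Reads counted on genes ran from 29632718 to 33276634 per mouse in Ctrl, from 24415658 to 29784346 in Model and from 25149764 to 29698342 in YHY. The members drew between 226 and 37137 counts in a single mouse, and all 8 passed the filter on low counts. Transcripts of the mitochondrial genome took 19.5% ± 2.12 of counts in Ctrl mice, 52.2% ± 7.68 in Model mice and 56.8% ± 5.21 in YHY (n = 4 mice each, mean ± SD). Model 1 had the lowest share among db/db mice, 41.2% (95% Wilson interval 41.1 to 41.2, which covers counting error only). The share was higher in Model than in Ctrl and in YHY than in Ctrl (2-sided exact permutation P = 0.0286 for each), and the difference between YHY and Model did not pass (exact permutation P = 0.457). Its part in the members' differences was not tested. Levels are given as CPM (normalised counts, scaled by library size and edgeR's TMM factors), and the effect of other scalings follows the comparisons. In RNA from tissue, fewer proximal tubule cells and less RNA per cell cannot be told apart.

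Promoters are shown for Lrp2, the gene of the receptor megalin, for Amn and Dab2, whose windows held a searched motif, and for Ocrl, which ran opposite to Lrp2. RefSeq promoter windows of 300 bases (GRCm38.p6) were listed for all 8 members, 10 windows in all, since Dab2 and Clcn5 had a pair each. Both strands were searched for GTTAAT, 1 arm of the site of the tubule factor HNF1, for CAAAGTCCA, a site of HNF4, and for the E-box CACGTG. Of 32851 listed promoters, 7.099% held GTTAAT, 0.475% held CAAAGTCCA and 7.15% held CACGTG. Among the members, 1 Dab2 window held GTTAAT and the Amn window held CACGTG, both in capitals here, and the other windows held none of these letters. The windows are Lrp2 (chr2:69585980-69586279, minus strand), Amn (chr12:111270846-111271145, plus strand), Dab2 (chr15:6386498-6386797, plus strand) and Ocrl (chrX:47912206-47912505, plus strand), printed 5′ to 3′.
Lrp2: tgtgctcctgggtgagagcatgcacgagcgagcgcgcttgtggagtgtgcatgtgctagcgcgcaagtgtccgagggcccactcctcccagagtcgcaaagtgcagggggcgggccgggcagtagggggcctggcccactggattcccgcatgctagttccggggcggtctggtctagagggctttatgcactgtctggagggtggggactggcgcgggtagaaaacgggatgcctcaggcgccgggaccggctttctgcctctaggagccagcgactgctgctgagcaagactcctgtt
Amn: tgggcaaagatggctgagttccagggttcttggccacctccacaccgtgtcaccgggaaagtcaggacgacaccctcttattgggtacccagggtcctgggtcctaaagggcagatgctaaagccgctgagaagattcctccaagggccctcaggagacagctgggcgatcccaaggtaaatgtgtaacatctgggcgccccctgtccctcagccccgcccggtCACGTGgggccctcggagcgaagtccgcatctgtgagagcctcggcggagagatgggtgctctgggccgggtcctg
Dab2: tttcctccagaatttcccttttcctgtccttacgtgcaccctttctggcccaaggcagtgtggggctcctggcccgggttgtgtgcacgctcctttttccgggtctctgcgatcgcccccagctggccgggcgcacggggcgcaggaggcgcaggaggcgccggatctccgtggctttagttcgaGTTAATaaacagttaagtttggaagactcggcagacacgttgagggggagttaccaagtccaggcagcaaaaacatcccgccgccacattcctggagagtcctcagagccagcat
Ocrl: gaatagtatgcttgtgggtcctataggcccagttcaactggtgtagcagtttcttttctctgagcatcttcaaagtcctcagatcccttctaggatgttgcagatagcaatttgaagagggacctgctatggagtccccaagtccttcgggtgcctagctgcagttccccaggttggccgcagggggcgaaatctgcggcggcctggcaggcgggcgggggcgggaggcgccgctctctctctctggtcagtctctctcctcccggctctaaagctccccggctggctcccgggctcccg

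The receptors come first, with gene positions in GRCm39, the build named in the submitters' processing notes. Lrp2 (ENSMUSG00000027070, chr2:69254684-69416409, minus strand, 16701 bases of exon) read 753, 897, 851 and 845 CPM in Ctrl 1 to 4, 302, 244, 283 and 213 CPM in Model 1 to 4 and 75.95, 137, 216 and 285 CPM in YHY 1 to 4. All db/db mice, treated or not, lay far below the lowest Ctrl mouse, while Model and YHY overlapped through YHY 3 and YHY 4. Cubn (ENSMUSG00000026726, chr2:13281149-13496624, minus strand, 14935 bases of exon) read 148, 209, 186 and 190.4 CPM in the Ctrl mice, 108, 101, 99.5 and 83.01 in the Model mice and 37.2, 80.4, 54.7 and 81.5 in the YHY mice. Cubilin transcripts thus formed 3 separate ranges, with YHY lowest, although the gap between the lowest Model mouse and the highest YHY mouse was narrow. Amn (ENSMUSG00000021278, chr12:111237529-111242860, plus strand, 1843 bases of exon) read 122, 161, 117 and 111 CPM in Ctrl, 105, 74.01, 88.99 and 59.98 in Model and 31.8, 58.2, 58.8 and 121 in YHY. Model lay below Ctrl without overlap, whereas YHY 4 reached the Ctrl range and the other YHY mice lay below every Model mouse.

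The adaptor Dab2 (ENSMUSG00000022150, chr15:6329269-6470193, plus strand, 7342 bases of exon) had 211, 248, 219 and 189 CPM in Ctrl, 178, 121, 140.1 and 80.6 in Model and 54.4, 90.2, 81.5 and 221 in YHY. Model 1 came close to the lowest Ctrl mouse, and YHY 4 lay inside the Ctrl range while YHY 1 to 3 lay far below it. The exchanger gene Clcn5 (ENSMUSG00000004317, chrX:7020049-7185597, minus strand, 11452 bases of exon) had 47.6, 60.5, 50.9 and 48.1 CPM in Ctrl, 37.6, 26.7, 37.01 and 22.6 in Model and 15.9, 12.5, 15.8 and 27.8 in YHY. Both db/db groups lay below Ctrl, and only YHY 4 overlapped Model. The phosphatase gene Ocrl (ENSMUSG00000001173, chrX:47001264-47054745, plus strand, 9486 bases of exon) had 11.3, 10.1, 9.49 and 11.3 CPM in Ctrl, 13.1, 16.99, 15.9 and 21.7 in Model and 28.1, 31.4, 22.9 and 22.2 in YHY. Ocrl ran opposite to the other members, with 3 ranges that did not overlap and YHY highest, and Model 4 came within 1 CPM of the lowest YHY mouse.

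For the recycling receptor, Fcgrt (ENSMUSG00000003420, chr7:44742414-44753275, minus strand, 2102 bases of exon) gave 121, 167, 149 and 139 CPM in Ctrl, 94.2, 80.5, 72.6 and 56.9 in Model and 50.6, 64.4, 70.3 and 76.2 in YHY. The Ctrl mice stood apart from both db/db groups, which overlapped widely. For the chaperone, Lrpap1 (ENSMUSG00000029103, chr5:35248845-35263110, minus strand, 4116 bases of exon) gave 496, 625, 544 and 415 CPM in Ctrl, 233, 163, 188 and 159 in Model and 71.7, 99.99, 70.3 and 120.4 in YHY. Its ranges did not overlap between any pair of groups and stepped down from Ctrl to Model to YHY. In the Model group, Model 1 was highest for all members except Ocrl, for which it was lowest.

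**Figure D1:**
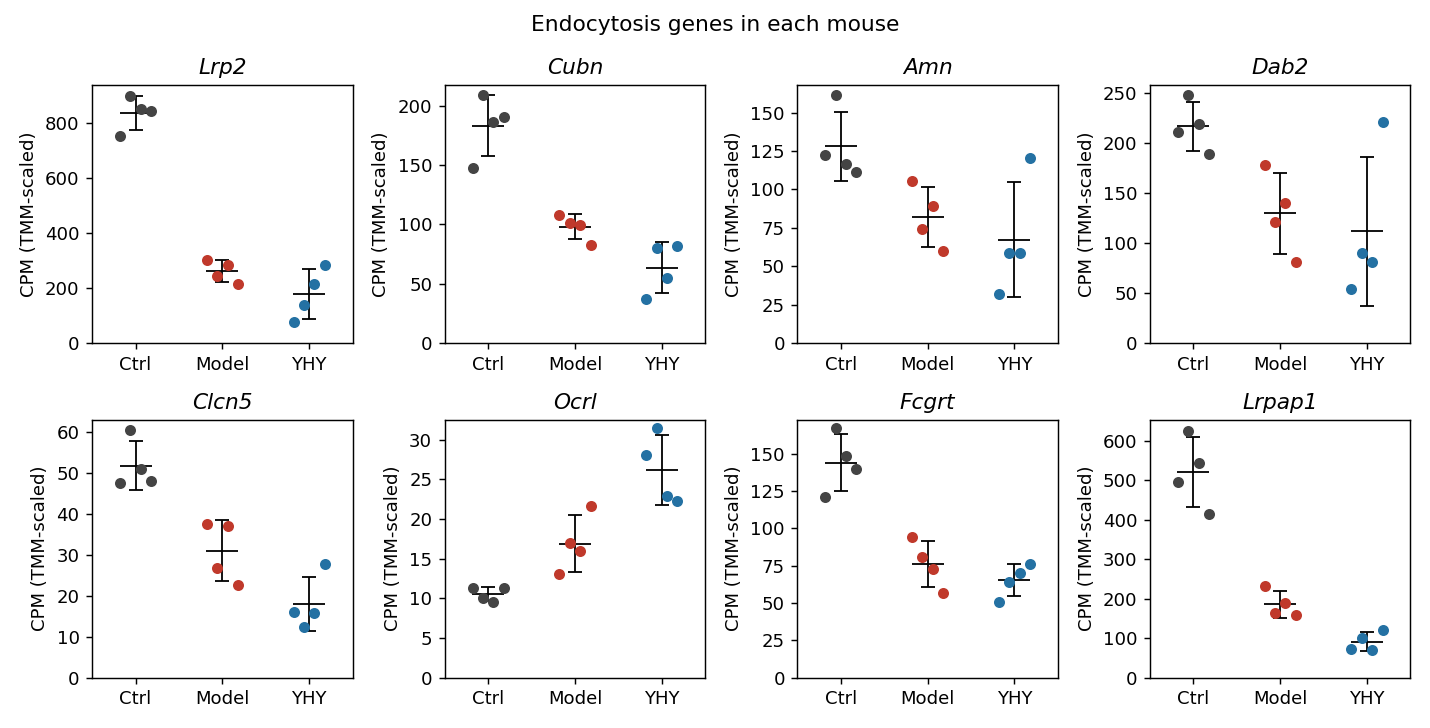
TMM-scaled CPM (y axis) of the 8 members in each of the 12 mice, by group; points are mice in the order of their numbers, horizontal bars are means and error bars SD (n = 4). Both db/db groups lie below Ctrl for 7 members apart from YHY 4 for Amn and Dab2, and above Ctrl for Ocrl.

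Levels can be compared between genes only per length of transcript, as FPKM. In Ctrl, Lrpap1 led with 126 ± 21.4 FPKM, followed by Amn with 69.4 ± 12.3, Fcgrt with 68.5 ± 9.09 and Lrp2 with 50.1 ± 3.62 FPKM (SD, n = 4). Dab2 followed with 29.5 ± 3.32 FPKM, Cubn with 12.3 ± 1.72, Clcn5 with 4.52 ± 0.525 and Ocrl with 1.11 ± 0.0953 FPKM. Amn and Fcgrt overlapped in this order, and every other pair of neighbours was separate across the 4 Ctrl mice. In Model, Lrp2 at 15.6 ± 2.39 FPKM and Dab2 at 17.7 ± 5.52 changed places in the order of means, and Lrpap1 at 45.1 ± 8.26 stood beside Amn at 44.5 ± 10.6 FPKM. Both of these pairs overlapped in their ranges. In YHY, Amn had 36.5 ± 20.4 FPKM, Fcgrt 31.1 ± 5.21 and Lrpap1 22.01 ± 5.86, so the chaperone no longer led. Ocrl, lowest of the members in Ctrl, exceeded Clcn5 in Model 4 and in YHY 1, 2 and 3, with 2.76 ± 0.461 against 1.57 ± 0.586 FPKM in YHY.

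The comparison of Model with Ctrl asks what changes in untreated db/db kidney. Lrp2 and its chaperone Lrpap1 fell most, and Cubn, Fcgrt and Clcn5 fell as well, while Ocrl rose. Of the 8 members, 5 were lower and 1 was higher at an adjusted P under 0.05, against 18.5% of 17431 tested genes lower and 19.6% higher. Lrp2 fell by 1.68 on the log2 scale (95% interval -2.31 to -1.06, edgeR adjusted P = 4.00e-04, lower in 4 of 4 Model mice than in any Ctrl mouse). Lrpap1 fell by 1.48 (-1.92 to -1.05, edgeR adjusted P = 7.07e-05), and Fcgrt by a log2 difference of -0.92 (-1.30 to -0.55, adjusted P = 8.10e-04). The median over the members was -0.82, and 13.3% of all tested genes had a lower log2 fold change than that, where the median of all tested genes was 0.04.

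Cubn had a log2 fold change of -0.90 (-1.36 to -0.45, edgeR adjusted P = 0.0036) and Clcn5 one of -0.74 (-1.21 to -0.27, adjusted P = 0.0157). Ocrl rose by 0.68 (0.31 to 1.04, edgeR adjusted P = 0.00562). Amn and Dab2 did not pass, at -0.64 (edgeR adjusted P = 0.101) and -0.74 (adjusted P = 0.094), although the 4 Model mice lay below the 4 Ctrl mice for both. By the 2-sided exact permutation test on log2 CPM, every member reached P = 0.0286, the smallest value that 4 against 4 mice can give and the value of groups that do not overlap. Of all tested genes, 40.2% did not overlap between Model and Ctrl in log2 CPM. Without Model 2 or Model 4, Clcn5 was not called (edgeR adjusted P = 0.0531 and 0.0581). Without Model 1 or YHY 4, Amn (adjusted P = 0.0476 and 0.0263) and Dab2 (0.0386 and 0.0137) passed in edgeR, and Amn also passed without YHY 1 (0.0434).

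**Figure D2:**
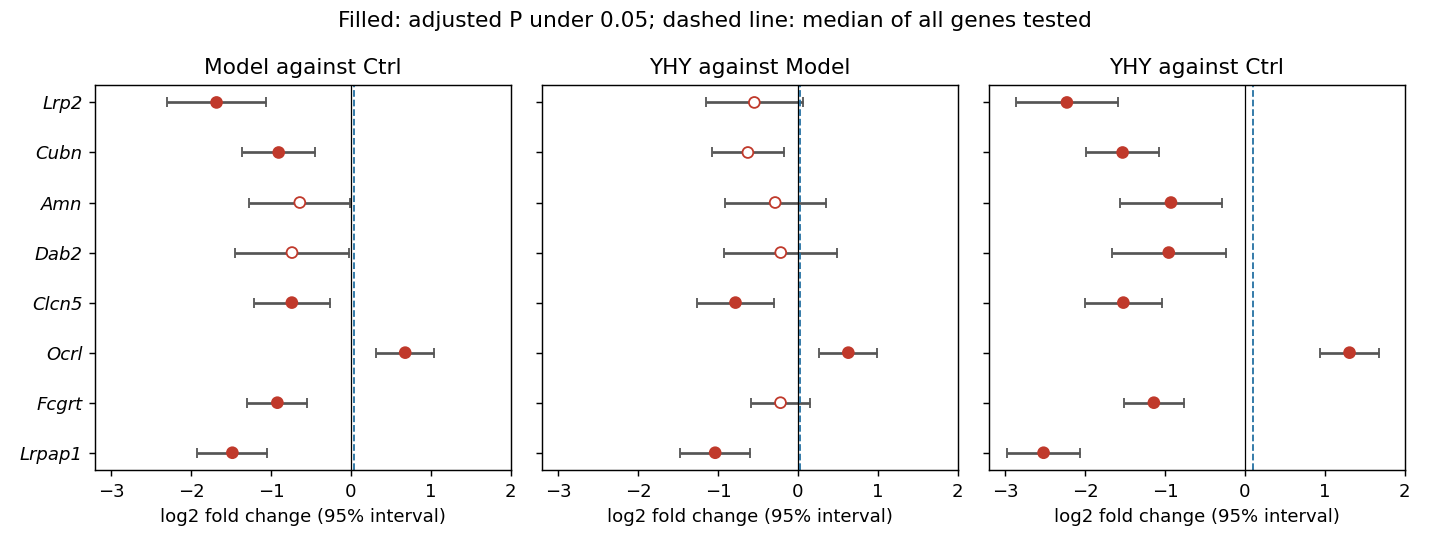
Log2 fold change (x axis) of each member in the 3 comparisons, with 95% intervals from edgeR's quasi-likelihood fit over 12 mice; filled points have an adjusted P under 0.05, and the dashed line is the median of all genes tested. Lrpap1 is called lower and Ocrl higher in each panel, and the comparisons share mice.

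The comparison of YHY with Model asks what differs in treated db/db kidney, and it shares the Model mice with the comparison above. Mice were grouped by the count table's column names, and the authors' own table for this comparison prints Model 1, YHY 3 and YHY 4 over its Model columns, a difference that was not resolved. Lrpap1 and Clcn5 were lower still in YHY and Ocrl was higher still, so no member that had changed in Model was called in the direction of Ctrl. This was 2 members lower and 1 higher, against 7.62% of tested genes lower and 5.63% higher. Lrpap1 fell by 1.04 on the log2 scale (-1.47 to -0.60, edgeR adjusted P = 0.00496), and Clcn5 fell by 0.78 (-1.26 to -0.30, adjusted P = 0.0316). Ocrl rose by 0.63 (0.27 to 0.99, edgeR adjusted P = 0.0244). The receptors did not pass, with log2 fold changes of -0.55 (-1.16 to 0.06) for Lrp2, -0.63 (-1.08 to -0.17) for Cubn and -0.29 (-0.92 to 0.35) for Amn. The median over the members was -0.42, against 0.02 over all tested genes.

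Dab2 and Fcgrt had intervals of -0.92 to 0.49 and -0.59 to 0.15 on the log2 scale, and neither a rise nor a fall was shown. By the 2-sided exact permutation test on log2 CPM, Cubn, Ocrl and Lrpap1 reached P = 0.0286 in 4 against 4 mice, and Clcn5 had P = 0.0857. Of all tested genes, 16.1% did not overlap between YHY and Model in log2 CPM. The count of called members rested on single mice. It was 1 without Model 1, 1 without Model 3, 1 without YHY 1 and 7 without YHY 4, against 3 with all mice. Lrpap1 was the member called in each of the first 3 of these fits, and Fcgrt the member not called in the last. Calls over all tested genes moved too. They were 634 higher and 917 lower without Model 1, 419 and 727 without Model 3 and 869 and 1007 without YHY 1. Without YHY 4 they were 1043 and 1678, against 982 and 1329 with all mice. Clcn5 was not called without Model 1, Model 3, YHY 1, YHY 2 or YHY 3 (edgeR adjusted P = 0.0866, 0.104, 0.0717, 0.0824 and 0.0734), and was not called in a fit of the 8 mice compared (adjusted P = 0.0752). Ocrl was not called without Model 1, Model 2, Model 3, YHY 1 or YHY 2 (edgeR adjusted P = 0.0698, 0.0519, 0.0773, 0.0545 and 0.0655). Cubn passed without YHY 2 or YHY 4 (edgeR adjusted P = 0.0444 and 0.0274), and Lrp2, Amn and Dab2 passed without YHY 4 (0.0386, 0.0474 and 0.0362). With each mouse left out, the log2 fold change ran from -0.87 to -0.29 for Lrp2, from -0.73 to -0.05 for Amn, from -0.79 to 0.01 for Dab2 and from -0.34 to -0.10 for Fcgrt. Spread within YHY was large for several members, with a coefficient of variation of 66.7% for Dab2, 55.9% for Amn and 51.1% for Lrp2, against 7.23% for Lrp2 in Ctrl.

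The comparison of YHY with Ctrl places the treated mice relative to db/m and shares mice with both others. The members other than Ocrl were lower, 7 of 8, and Ocrl was higher, against 24.2% of tested genes lower and 26.1% higher. Lrpap1 fell by 2.52 on the log2 scale (-2.97 to -2.07, edgeR adjusted P = 4.38e-07) and Lrp2 by a log2 difference of -2.23 (-2.87 to -1.59, adjusted P = 2.04e-05). Cubn had -1.53, Clcn5 -1.52 and Fcgrt -1.14 on the same scale (edgeR adjusted P = 3.24e-05, 5.13e-05 and 7.55e-05). Ocrl rose by 1.31 (0.94 to 1.68, edgeR adjusted P = 1.70e-05). Amn and Dab2 passed with -0.93 and -0.95 (adjusted P = 0.0169 and 0.0267) but overlapped Ctrl through YHY 4, with exact permutation P = 0.0857 and 0.114 in 4 against 4 mice. Dab2 was not called without Ctrl 2, YHY 1, YHY 2 or YHY 3 (edgeR adjusted P = 0.0597, 0.0688, 0.071 and 0.0752), nor Amn without Ctrl 2 (0.0517). Without YHY 4 the log2 fold change of Dab2 was -1.53. The ranges of 6 members did not overlap between YHY and Ctrl, nor did those of 44.6% of all tested genes in log2 CPM.

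Library scaling cancels in the ratio of a member to Lrp2 within 1 mouse. Counts of Cubn were 19.6, 23.3, 21.9 and 22.5% of those of Lrp2 in Ctrl, 35.7, 41.5, 35.1 and 39.00% in Model and 48.9, 58.7, 25.4 and 28.6% in YHY. Cubilin transcripts thus stood higher relative to megalin transcripts in every db/db mouse than in any Ctrl mouse. Lrp2 itself had log2 fold changes of -1.68 in Model and -2.23 in YHY against Ctrl. The median over all tested genes was 0.04 and 0.10, so a gene near that median also rose relative to Lrp2. Amn rose relative to Lrp2 from 15.3 ± 2.24% in Ctrl to 31.2 ± 2.78% in Model and 38.5 ± 7.51% in YHY (SD, n = 4), and Dab2 from 25.95 ± 2.61% to 48.97 ± 8.65% and 63.3 ± 17.7%. By the 2-sided exact permutation test on the log2 ratio in 4 against 4 mice, Cubn, Amn, Dab2, Clcn5, Ocrl and Fcgrt each differed from Ctrl in Model and in YHY (P = 0.0286). Relative to Ctrl, only 2.47% of tested genes had a lower log2 fold change than Lrp2 for Model mice, and 1.86% for YHY mice. Most tested genes thus rose relative to Lrp2 too, and these differences do not set the members apart. How many of all tested genes lacked overlap in this ratio was not computed. Lrpap1 stood at 62.2 ± 9.03% of Lrp2 counts in Ctrl, 71.3 ± 5.53% in Model and 60.6 ± 28.4% in YHY, with overlapping mice (exact permutation P = 0.143 for Model against Ctrl). Between YHY and Model no ratio to Lrp2 passed, and Ocrl came nearest, at 6.77 ± 2.51% of Lrp2 counts in Model and 19.6 ± 13.3% in YHY (exact permutation P = 0.0571).

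Some proximal tubule markers were lower in the db/db groups as well. Of 18 markers, 8 were lower and 2 higher in Model than in Ctrl, with a median log2 fold change of -0.60, and 12 were lower and 1 higher in YHY than in Ctrl, with a median of -1.45. Between YHY and Model, 3 were lower and 0 higher (median -0.60). Shares over all tested genes were 18.5% lower and 19.6% higher in Model against Ctrl and 24.2% and 26.1% in YHY against Ctrl. In YHY against Model they were 7.62% and 5.63%. Summed over the markers, the level was 62998, 82027, 66114 and 35838 CPM in Ctrl 1 to 4, 26707, 19947, 24254 and 17315 CPM in Model 1 to 4 and 11973, 20014, 9824 and 22794 CPM in YHY 1 to 4. Every db/db mouse lay below every Ctrl mouse in this sum, which Kap led, and no marker was at 0 in any mouse. Kap, an androgen-responsive tubule transcript, made up 56.6% to 70.9% of that sum in the Ctrl mice. Without Kap the sum ran from 15556 to 23949 CPM in Ctrl mice, from 13269.7 to 19764 in Model mice and from 8069 to 17645 in YHY mice, so that Model and YHY each overlapped Ctrl. The mean log2 CPM of the 18 markers, which weighs them equally, differed by -0.64 in Model against Ctrl, -0.73 in YHY against Model and -1.37 in YHY against Ctrl (2-sided exact permutation P = 0.0571, 0.114 and 0.0286, n = 4). The markers called higher in Model, named here after their values were seen, were the anion transporter gene Slc22a8 (1.13 ± 0.35, log2 ± SE) and the gluconeogenic enzyme gene Pck1 (0.92 ± 0.28). Of the 8 called lower, Kap (-3.06 ± 0.41), Cyp2e1 (-2.59 ± 0.47) and Slc7a13 (-2.33 ± 0.29) fell most, also named after their values were seen. The phosphate carrier Slc34a1, a defining marker, did not pass in Model against Ctrl (0.06 ± 0.29, log2 ± SE, edgeR adjusted P = 0.893), and Slc5a2 did not either (0.42 ± 0.53, adjusted P = 0.562). The part of the tubule markers in the members' differences was not tested.

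Each member was also set against the mean log2 CPM of those 18 markers in the same mouse. Lrp2 stood at 0.18, 0.10, 0.26 and 0.81 in Ctrl, -0.78, -0.78, -0.68 and -0.62 in Model and -1.17, -1.18, 0.27 and -0.63 in YHY. Relative to these markers, megalin was lower in every Model mouse than in any Ctrl mouse, while YHY 3 lay inside the Ctrl range. Against Ctrl, Model differed by -1.05 for Lrp2, -0.84 for Lrpap1 and 1.28 for Ocrl (2-sided exact permutation P = 0.0286 each, n = 4 against 4). The marker mean itself differed by -0.64 in Model and -1.37 in YHY against Ctrl. The median log2 fold change of all tested genes was 0.04 and 0.10, so a gene near that median stood higher on this scale. The share of all tested genes without overlap on it was not computed. For Cubn the difference was -0.26, for Amn -0.01, for Dab2 -0.15, for Clcn5 -0.12 and for Fcgrt -0.29, and none of these 5 passed the exact permutation test (P = 0.0571 to 0.943). Lrpap1 and Ocrl differed in YHY against Ctrl too, by -1.16 and 2.63 (exact permutation P = 0.0286), whereas Lrp2 did not (-1.02, P = 0.114). With the median of the markers in place of their mean, Amn was higher in Model by 0.28 (exact permutation P = 0.0286), and Fcgrt was higher in YHY than in Model by 0.56 and than in Ctrl by 0.56 (P = 0.0286 for both).

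**Figure D3:**
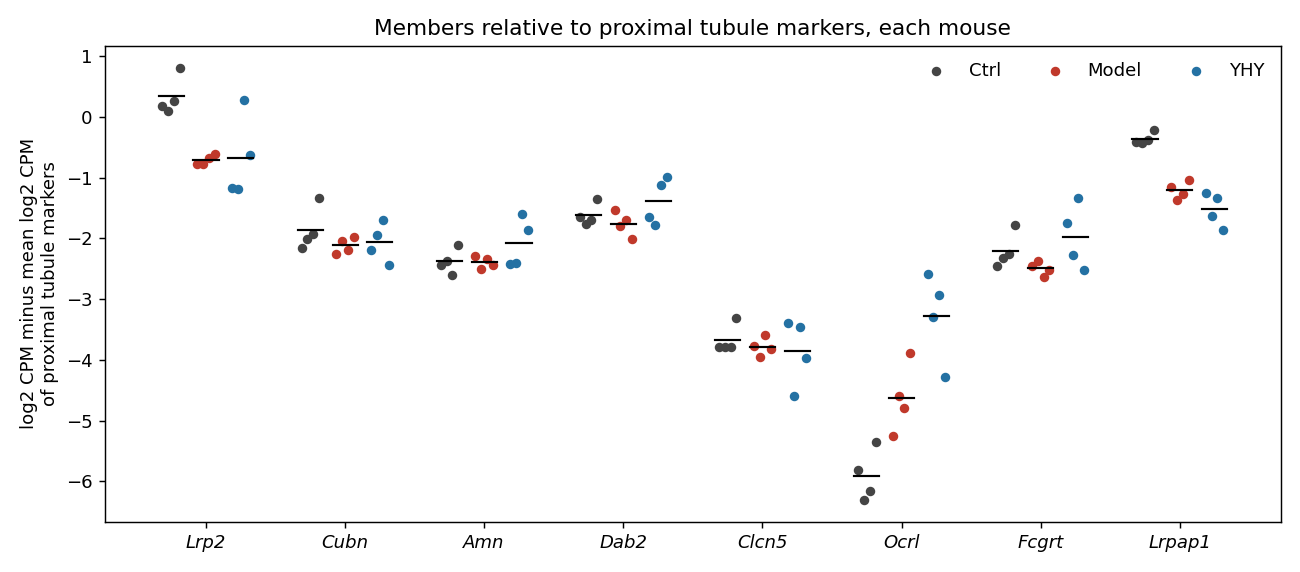
Log2 CPM of each member minus the mean log2 CPM of 18 proximal tubule markers (y axis), with 1 point per mouse and bars at group means (n = 4). Lrp2 and Lrpap1 lie lower and Ocrl higher in Model than in Ctrl without overlap, and the other members overlap.

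Since mitochondrial transcripts filled more of the db/db libraries, the members were also scaled in other ways. By library size alone, the median log2 fold change of all tested genes in Model against Ctrl moved to -0.39, with 1547 genes called higher and 5670 lower, against 3412 genes called higher and 3219 lower with TMM. Lrp2 then had -2.11 and Ocrl 0.24, and the rise of Ocrl in Model was no longer called (edgeR adjusted P = 0.372), while Amn and Dab2 were. In YHY against Ctrl the median was -0.33 by library size, with 2365 genes called higher and 5979 lower, against 4547 genes called higher and 4215 lower with TMM, and Ocrl still rose (0.86). In YHY against Model, neither Clcn5 (edgeR adjusted P = 0.0710) nor Ocrl (0.0720) was called by library size alone. Upper-quartile scaling placed the median at 0.14 in Model against Ctrl and at 0.22 in YHY against Ctrl, against 0.10 with TMM. Without the mitochondrial genes, Lrp2 had -1.69 and Ocrl 0.67 in Model against Ctrl, and the same members were called as with TMM. Across these 4 scalings the 7 falling members kept a negative log2 fold change and Ocrl a positive one in each comparison. Dividing by the summed proximal tubule markers instead, a sum led by Kap in Ctrl, moved the median to 1.45 and turned the sign of Cubn, Amn, Dab2, Clcn5 and Fcgrt in Model against Ctrl.

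**Figure D4:**
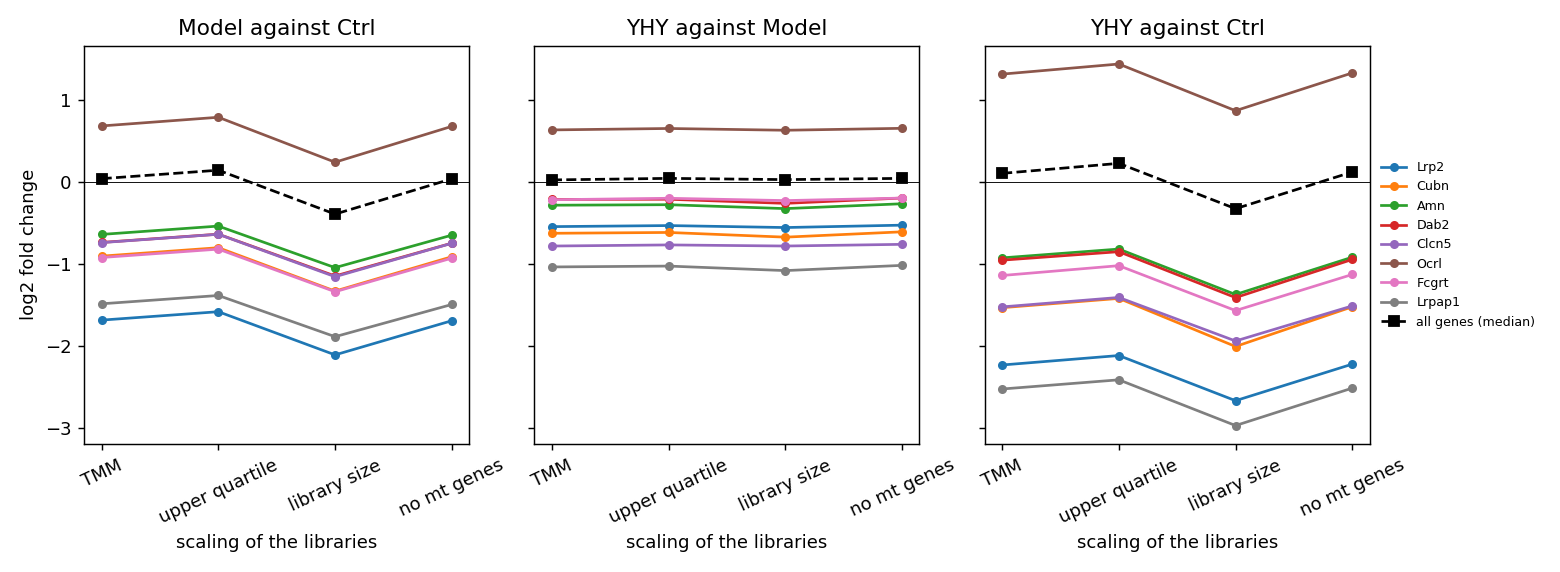
Log2 fold change (y axis) of the 8 members and the median of all tested genes (dashed) under 4 scalings of the libraries (x axis), for each comparison. Scaling by library size shifts members and median down together in the comparisons with Ctrl, and Ocrl lies above the median and the other members below it throughout.

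Related genes of the route were counted by list, beside all tested genes. Of these, 18.5% lower and 19.6% higher were called in Model against Ctrl (median 0.04), 7.62% lower and 5.63% higher in YHY against Model (median 0.02) and 24.2% lower and 26.1% higher in YHY against Ctrl (median 0.10), and a list with a like share called shows nothing of its own. The list of endosomal exchangers and proton pump also holds accessory genes such as Ostm1. Of its genes, 12 of 22 lower and 0 higher were called in Model against Ctrl (median -0.59). In YHY against Model 4 of 22 were lower and 1 higher (median -0.10), and in YHY against Ctrl 16 of 22 lower and 2 higher (median -0.71). In Model, Ostm1 fell (-1.62 ± 0.20, log2 ± SE, edgeR adjusted P = 3.07e-05), as did the exchanger Clcn3 (-1.61 ± 0.18, adjusted P = 1.28e-05) and the pump subunit Atp6v0c (-1.60 ± 0.23, adjusted P = 8.80e-05). Clcn3 rose in YHY against Model (0.82 ± 0.18, edgeR adjusted P = 0.00785), opposite to Clcn5. Clcn4, the relative of Clcn5, did not pass in any comparison (-0.09 ± 0.13 in Model against Ctrl).

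Clathrin coat and adaptor genes had 7 of 20 lower and 2 higher in Model against Ctrl (median -0.34), 5 of 20 lower and 1 higher in YHY against Model (median -0.17) and 10 of 20 lower and 4 higher in YHY against Ctrl (median -0.30). The light chain Clta (-0.86 ± 0.12, edgeR adjusted P = 9.07e-05) and the AP-2 subunit Ap2m1 (-0.78 ± 0.14, adjusted P = 5.47e-04) fell in Model. Another AP-2 subunit, Ap2s1, rose in Model (0.63 ± 0.14, edgeR adjusted P = 0.00278) and fell from Model to YHY (-0.69 ± 0.14, adjusted P = 0.00674). The remaining AP-2 subunits of the list did not pass in Model. Early and recycling endosome genes had 8 of 22 lower and 1 higher (median -0.26), 6 of 22 lower and 2 higher (median -0.24) and 12 of 22 lower and 2 higher (median -0.60) in the same order of comparisons. Rab5a, the early endosome GTPase, fell in Model (-1.39 ± 0.19, edgeR adjusted P = 7.46e-05), and Ehd1 (-0.99 ± 0.15) and Rab4a (-0.94 ± 0.17), both of recycling, fell from Model to YHY (adjusted P = 0.00115 and 0.00354). Appl2, an adaptor of early endosomes, rose from Model to YHY (0.88 ± 0.21, edgeR adjusted P = 0.0144), and Inpp5b, the relative of Ocrl, did not pass (0.20 ± 0.18).

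Other receptors had 2 of 14 lower and 2 higher in Model against Ctrl (median -0.07), 1 of 14 lower and 1 higher in YHY against Model (median 0.03) and 4 of 14 lower and 5 higher in YHY against Ctrl (median -0.12). The fatty acid and scavenger receptor Cd36 fell in Model (-2.85 ± 0.26, edgeR adjusted P = 2.38e-06), and the scavenger receptors Stab2 and Stab1 rose (2.80 ± 0.64 and 0.95 ± 0.21, adjusted P = 0.0029 and 0.00234). Lrp1, another large receptor of the same family as megalin, did not pass in Model against Ctrl (0.76 ± 0.30, adjusted P = 0.0536) and rose in YHY against Ctrl (1.41 ± 0.30, adjusted P = 0.00107), opposite to Lrp2. Genes of filtered ligands and vitamin handling had 5 of 14 lower and 3 higher (median 0.15), 1 of 14 lower and 0 higher (median -0.03) and 6 of 14 lower and 4 higher (median -0.25). Transcripts of Selenop, the selenium carrier, fell in Model (-3.54 ± 0.19, edgeR adjusted P = 1.47e-08), while Gc, the vitamin D carrier, and Cyp27b1, which activates vitamin D, rose (3.39 ± 0.37 and 3.09 ± 0.59, adjusted P = 1.09e-05 and 8.13e-04). Tcn2, the cobalamin carrier, fell (-1.40 ± 0.32, edgeR adjusted P = 0.00269), B2m, the partner chain of Fcgrt, fell with it (-0.78 ± 0.23, adjusted P = 0.0152), and the folate receptor Folr1 did not pass (0.09 ± 0.26).

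Lysosomal genes had 5 of 14 lower and 1 higher in Model against Ctrl (median -0.28), 1 of 14 lower and 1 higher in YHY against Model (median -0.20) and 9 of 14 lower and 2 higher in YHY against Ctrl (median -0.64). The membrane protein Lamp1 (-1.70 ± 0.19, edgeR adjusted P = 1.48e-05) and the proteases Ctsh (-1.66 ± 0.15, adjusted P = 3.37e-06) and Ctsl (-1.28 ± 0.22, adjusted P = 3.84e-04) fell in Model.

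**Figure D5:**
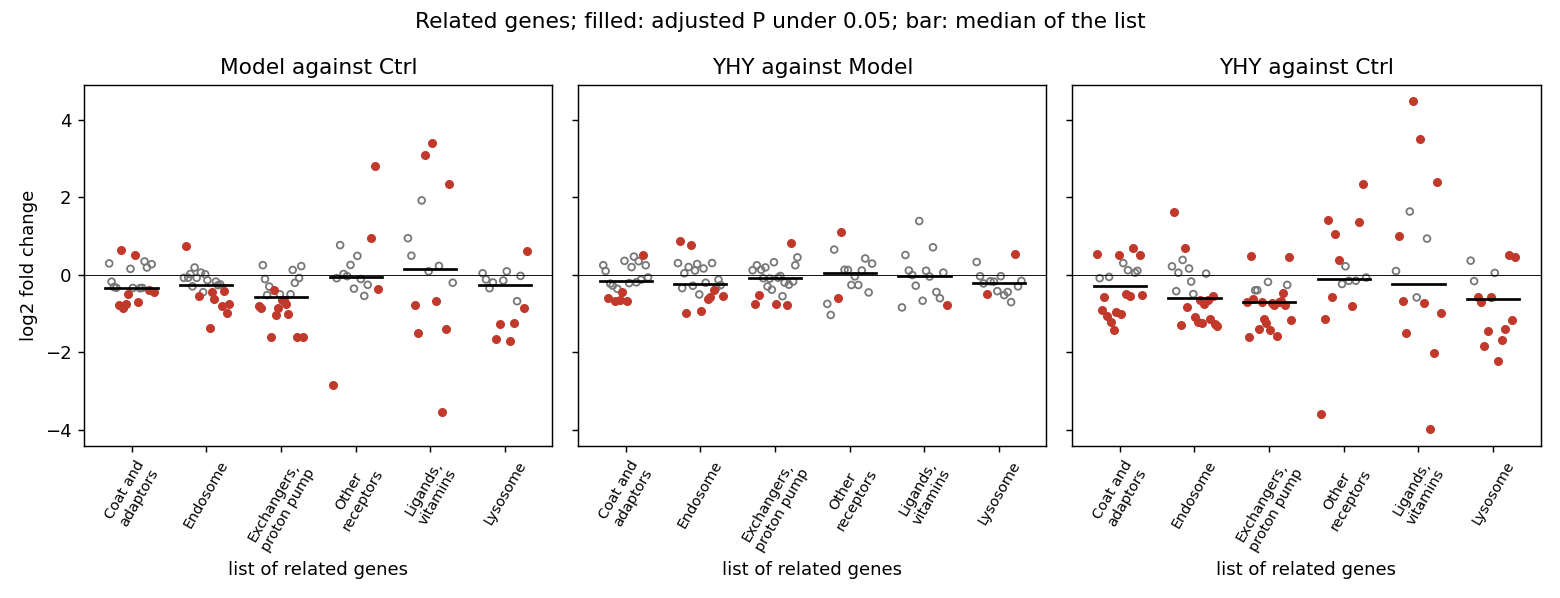
Log2 fold change (y axis) of each tested gene in 6 lists of related genes (x axis) for the 3 comparisons; filled points have an adjusted P under 0.05 and bars mark list medians. In the comparisons with Ctrl, more genes of the exchanger and proton pump list lie below 0 than above it.

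Markers of other cells were counted first for Model against Ctrl, then for YHY against Ctrl. Podocyte markers had 0 of 6 lower and 3 higher, then 1 of 6 lower and 3 higher, with summed levels of 135 ± 19.3 CPM for Ctrl mice, 167 ± 65.7 for Model and 114 ± 38.5 for YHY (n = 4, mean ± SD). Thick ascending limb markers had 3 of 4 lower and 0 higher, then 3 of 4 lower and 0 higher, with summed levels of 1917 ± 568, 982 ± 190.0 and 1384 ± 535 CPM. Distal convoluted tubule markers had 0 of 4 lower and 2 higher, then 1 of 4 lower and 2 higher, and collecting duct markers 3 of 7 lower and 0 higher, then 4 of 7 lower and 0 higher. Differences between these segments were not tested, and the lists are short. Over all tested genes, 18.5% were lower and 19.6% higher in Model against Ctrl, and 24.2% and 26.1% in YHY against Ctrl. Endothelial markers had 0 of 6 lower and 1 higher, then 0 of 6 lower and 1 higher, macrophage markers 3 of 8 lower and 1 higher, then 2 of 8 lower and 2 higher, and fibroblast and pericyte markers 0 of 6 lower and 2 higher, then 0 of 6 lower and 2 higher. Of 5 lymphocyte markers 2 were tested, with medians of -1.21 and -0.49, and of 5 adipocyte markers 2 were tested, with medians of 0.59 and 0.50. Summed lymphocyte markers reached 1.53 ± 1.003 CPM in Ctrl. Injured tubule markers had 1 of 5 lower and 0 higher, then 1 of 5 lower and 0 higher, and their summed level was 20.5 ± 8.58, 13.4 ± 1.73 and 28.7 ± 13.5 CPM. The lower marker was Havcr1, the gene of the injury protein KIM-1, named here after its values were seen, with 107 to 165 counts in Ctrl mice, 0 to 6 in Model mice and 0 to 2 in YHY mice. In YHY against Model, the markers called in these lists, named after their values were seen, were Pvalb of the distal convoluted tubule (-1.59 ± 0.36, log2 ± SE) and Atp6v1g3 of the collecting duct (-1.13 ± 0.23), both lower, and the injury marker Lcn2 (2.06 ± 0.62), which was higher (edgeR adjusted P = 0.0102, 0.00568 and 0.0381). The part of these markers in the members' differences was not tested.

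As a description over the 12 mice, which differ by group, the genes most like Lrp2 in log2 CPM were Yif1a (r = 0.990), Slc22a12 (r = 0.988) and Mrpl34 (r = 0.985), and Cacul1 (r = 0.984) and Fbp1 (r = 0.983) were among those most like Cubn, out of 12930 genes. Slc22a12, a urate transporter of the proximal tubule, and Fbp1, a gluconeogenic enzyme and 1 of the 18 tubule markers, are among them. Many genes follow the groups this closely, with 100 above r = 0.95 for Lrp2 and 63 for Cubn.

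Transcript length and overlapping genes were looked at because members differ in length. Genes from 8000 to 12000 bases, the class of Ocrl and Clcn5, had a median log2 fold change of 0.17 in YHY against Model with 13.1% called higher, and genes from 1000 to 2000 bases, the class of Amn, had -0.12 with 1.202%. Genes from 12000 bases, the class of Lrp2 and Cubn, had 0.31 with 18.9% called higher. In YHY against Ctrl the medians were -0.06 in the class of Amn, 0.26 in that of Ocrl and 0.45 in that of Lrp2, with 43.7% of the last called higher. Genes under 1000 bases, a class without a member, had a median of 0.28 in Model against Ctrl, -0.16 in YHY against Model and 0.14 in YHY against Ctrl, so that medians followed length over all classes only in YHY against Model. In each comparison Lrp2 and Cubn lay below the median of their class, and Clcn5 and Ocrl of the same class had fold changes of opposite sign. The part of length in the rise of Ocrl was not tested. In Model against Ctrl the medians were 0.02 in the class of Amn, 0.03 in that of Ocrl and 0.14 in that of Lrp2. The use of strand in the counting is not given in the sources used here. Genes listed over Cubn, Dab2, Clcn5 and Fcgrt had mean counts of at most 5.33 per mouse, and no gene was listed over Lrp2, Amn, Ocrl or Lrpap1.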

How the data were processed

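Oligo(dT)-enriched mRNA of 12 kidneys was sequenced, and the authors deposited raw read counts per gene, with gene lengths and GRCm39 coordinates. The submitters' processing notes name FastQC 0.11.9, Trimmomatic 0.39, HISAT2 2.2.1, SAMtools 1.12, featureCounts 2.0.1, DESeq2 1.34.0 and R 4.1.2. The deposited comparison tables hold the authors' group means, fold changes, P values and pathway counts, and no value of theirs was used, nor their 12 columns of values per mouse. Headers over the Model columns of the YHY against Model table read Model 1, YHY 3 and YHY 4. Mice were grouped by the column names of the count table and the sample titles, and that difference was not resolved.

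Counts were fitted with edgeR 4.0.16 in R 4.3.3 (TMM, filterByExpr, glmQLFit and glmQLFTest, all 12 mice in 1 fit of 3 groups), with Benjamini-Hochberg adjustment over the 17431 genes tested and a call at an adjusted P under 0.05. Intervals are 95% intervals of that fit. Log2 CPM has 0.5 added before the log, and FPKM is TMM-scaled CPM per kilobase of the deposited gene length. Exact permutation tests were 2-sided. The steps were tested on simulated data. Replicates differed by at least 18.8 in chi-square per degree of freedom, so no library is a copy of another in its group, and pairs across groups were not compared. Alternatives included DESeq2 1.42.0, other scalings, filters and sets of mice, and each mouse left out. A fit of 9 mice took those that earlier results of these data gave as the mice of the authors' group means (Ctrl 1, 3 and 4, Model 2, 3 and 4, YHY 1, 2 and 3). Beyond the members, the text names up to 3 called genes per list and comparison with a mean count of at least 50 and the largest changes, genes set in the plan for their role (B2m, Clcn4, Inpp5b, Lrp1, Tcn2 and Folr1), and genes most like Lrp2 and Cubn. The members and lists were chosen with earlier results of these data known, and the length classes after seeing the data. Figures were drawn with matplotlib 3.10.9.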

Additional observations from a re-analysis of the deposited data

Results flagged for a closer look

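Among 78 sets of 4 mice of a group, 5 held a mouse far from the other 3, and chance flags about 1 in 20 such sets. The log2 ratio of Amn to Lrp2 was -1.88 in YHY 3, against -1.26 to -1.23 in the other YHY mice. Clcn5 lay at -3.31 relative to the proximal tubule markers in Ctrl 4, against -3.79 to -3.78 in the other Ctrl mice. The mitochondrial share of counts was 22.7% in Ctrl 2, against 18.4% to 18.6% in the other Ctrl mice, and 64.6% in YHY 2, against 53.8% to 54.6% in the other YHY mice. Ctrl 2 also had the fewest counts of its group, 29632718 against 32677732 to 33276634.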

How the results depend on the processing

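The counts of called members, 6 in Model against Ctrl, 3 in YHY against Model and 8 in YHY against Ctrl, stayed within a factor of 1.5 under DESeq2, upper-quartile scaling, removal of mitochondrial genes, both filters, fits of 8 or 9 mice and the study's limits (fold over 1.2 and unadjusted P under 0.05, with 8, 4 and 8). Library size alone gave 1 in YHY against Model, and the cause was not tested. Scaling by the summed proximal tubule markers gave 1, 0 and 4, and the cause was not tested. Of 17078 genes tested with that scaling, 12185, 644 and 14845 were called higher and 82, 42 and 101 lower in these comparisons. Leaving out each mouse gave 5 to 8, 1 to 7 and 6 to 8.

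The marker scaling moved the median log2 fold change of all genes to 1.45, 0.59 and 2.07 in these comparisons. Each member whose sign turned still lay below that median. Signs turned in Model against Ctrl for Cubn (0.47), Amn (0.75), Dab2 (0.63), Clcn5 (0.63) and Fcgrt (0.45), in YHY against Model for Lrp2 (0.00465), Amn (0.19), Dab2 (0.22) and Fcgrt (0.37), and in YHY against Ctrl for Cubn (0.32), Amn (0.94), Dab2 (0.86), Clcn5 (0.41) and Fcgrt (0.83). This scaling called 12185 genes higher and 82 lower in Model against Ctrl. Over all genes in YHY against Model, 982 higher and 1329 lower became 491 and 687 by library size, 644 and 42 by the markers, 693 and 692 with 8 mice, and 419 and 727 without Model 3. Without YHY 4 they became 1043 and 1678. With the markers' median, differences turned for Cubn (0.0371), Amn (0.28), Dab2 (0.15), Clcn5 (0.18) and Fcgrt (0.00261) in Model against Ctrl, and Cubn (0.12) and Clcn5 (0.14) in YHY against Ctrl.

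With mice left out, Dab2 in YHY against Model ran from -0.79 to 0.0105, and the log2 ratios to Lrp2 that turned were Cubn (-0.20 to 0.20) and Clcn5 (-0.44 to 0.0700) in YHY against Model and Lrpap1 (-0.41 to 0.11) in YHY against Ctrl. With the replicate number as a block, 6, 2 and 8 members were called, and Clcn5 in YHY against Model had an adjusted P of 0.0564 in edgeR. The mice share only a number: same-numbered mice had correlations of deviations from -0.208 to 0.170, and 2 of 12 correlated best with their own number. Depth was not varied, and each member had at least 226 counts in every mouse.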
